A study of Mus musculus with 15 samples.

Results

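RLTR classes are long terminal repeats (LTRs) of rodent endogenous retroviruses, together with some internal (-int) sequences of the same proviruses. They were taken here as all repeat classes of the deposited repeat table whose name starts with RLTR and a digit, which gave 102 of 1217 classes. Of these, 23 were subtypes of RLTR9 (8 classes) or RLTR13 (15 classes), and the other 79 served as the comparison. All 102 classes passed the filter on low values, and 101 had reads in every library. The exception was RLTR43B, which was near the detection floor. RNA was sequenced from E14 mouse embryonic stem cells (ESCs, 129/Ola background) that had been infected with lentiviral pLKO.1 vectors. The vectors carried a control hairpin (shScr), a hairpin against Tet1 (shTet1) or a hairpin against Tet2 (shTet2), with 5 libraries per group. All cells, controls included, had been selected with puromycin at 1 µg/ml for 3 days per the labels (the study's methods give a higher concentration), and had been grown without feeders in medium with 15% serum and LIF at 1000 U/ml. E14 is a single cell line, and each group is 1 hairpin, so an effect of the hairpin other than on its target cannot be told apart from an effect of the target. Nothing in the labels says that the 5 libraries of a group came from separate cultures, so the p-values measure the spread between these libraries, which may be technical.

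LTRs flank a provirus and carry its promoter and polyadenylation signal. Most copies in the mouse genome are solitary LTRs left after recombination between both ends of a provirus. In ESCs, most endogenous retroviruses are held silent by DNA methylation and by H3K9 methylation that SETDB1 and TRIM28 (KAP1) bring about, while some LTRs, among them RLTR9 and RLTR13 subtypes, bind NANOG, OCT4 and SOX2 and act as enhancers. TET1 and TET2 are dioxygenases that oxidise 5-methylcytosine in DNA to 5-hydroxymethylcytosine. The comparison therefore asks whether RNA from these LTRs, and from the enhancer subtypes in particular, differed when either enzyme was depleted.

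PCR oligonucleotides designed for RLTR9D and RLTR13D6 are shown as the study listed them for these enhancer LTRs. They are written 5′ to 3′, and capitals mark CpG dinucleotides, the usual site of the methylation that TET enzymes oxidise.
RLTR9D forward: gccttgaagcaggctgatc
RLTR9D reverse: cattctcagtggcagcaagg
RLTR13D6 forward: gtctggtgttCGtttggaca
RLTR13D6 reverse: CGgCGaaaatgacagacaga
The RLTR9D oligonucleotides held no CpG, while those of RLTR13D6 held 1 and 2. In the mm9 genome, the RLTR9D forward oligonucleotide had 128 exact matches and the reverse one 67 (455 and 241 with up to 1 mismatch). The matches with up to 1 mismatch together bounded 43 stretches of 43 to 49 bases on 19 chromosomes. Of these, 12 (27.9%) lay in introns, 31 (72.1%) lay between genes and 0 overlapped an exon. Whether the stretches lie in annotated RLTR9D copies was not tested. The RLTR13D6 pair had 20 and 2 exact matches, or 83 and 11 with up to 1 mismatch, and bounded 0 stretches of at most 500 bases. The sequencing values described next pool all annotated copies of a class.

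Library depth was 15258291 to 35432425 reads in genes and 7476759 to 19985961 reads in repeats, of which 140597 to 383094 fell in RLTR classes. Tet1 had values of 13.68 to 14.25 in shScr and 11.93 to 12.41 in shTet1 (log2, variance-stabilised), and it was lower by 1.84 ± 0.19 (SE, n = 5 per group, limma, adjusted p = 0.000228). Tet2 had values of 13.15 to 13.52 in shScr and 11.12 to 11.61 in shTet2, and it fell by 1.90 ± 0.13 (SE, n = 5 per group, limma, adjusted p = 3.67e-07). Both hairpins therefore lowered their own target in every library. Markers of ESCs were high in all libraries, with Pou5f1 at 572 to 1094 reads per 1000000 gene reads and Zfp42 at 708 to 1240. The 8 markers of fibroblasts and differentiated lineages stood at 14.4 reads per 1000000 or less. In 4 libraries (shScr replicate 4, shTet1 replicates 3 and 4, and shTet2 replicate 4), genes of olfactory and vomeronasal receptors, which ESCs are not known to use, took 53.3 to 63.4 reads per 1000000, against 9.43 to 26.3 in the other 11. In bulk RNA, fewer cells that express an LTR and less RNA per cell cannot be told apart.

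RLTR classes took 16.8 to 22.8 of every 1000 repeat reads. This share was 19.4 ± 1.63 (SD, n = 5) for the control libraries, 19.7 ± 2.59 for shTet1 and 17.9 ± 0.986 for shTet2. The shScr and shTet1 means differed by less than the SD of either group. The shTet2 mean lay below each of them by more than its own SD, but by less than the SD of the other group. Per 1000000 gene reads, RLTR classes had 8451 ± 2296 reads when the hairpin was shScr, 8299 ± 2932 when it was shTet1 and 8565 ± 1897 with shTet2 (SD, n = 5 each). RLTR9 and RLTR13 subtypes made up 14.4% ± 0.856 of RLTR reads with shScr, 13.5% ± 0.995 with shTet1 and 15.0% ± 0.705 with shTet2 (SD, n = 5 each). Their share was lowest in shTet1 replicate 1 at 12.4% and highest in shTet2 at 15.9%, and the ranges of the 3 groups overlapped.

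In the medians over classes, the libraries of a group differed far more than the groups did. The median over the 23 RLTR9 and RLTR13 subtypes was 9.38 ± 0.48 with shScr, 9.19 ± 0.63 with shTet1 and 9.45 ± 0.48 with shTet2 (log2, SD, n = 5 each). The median over the other 79 classes was 9.99 ± 0.48, 9.91 ± 0.78 and 10.05 ± 0.44 in the same order. The 4 libraries with many receptor reads had medians over all 102 classes of 10.48 to 10.60, above the 9.10 to 10.21 of the other 11 libraries. Over all 1187 tested repeat classes, the medians of these 4 libraries were 8.78 to 8.98, against 7.85 to 8.82, so the same libraries were high for repeats as a whole. The part of the receptor reads in the RLTR differences was not tested beyond the fits without these libraries given later.

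**Figure D1:**
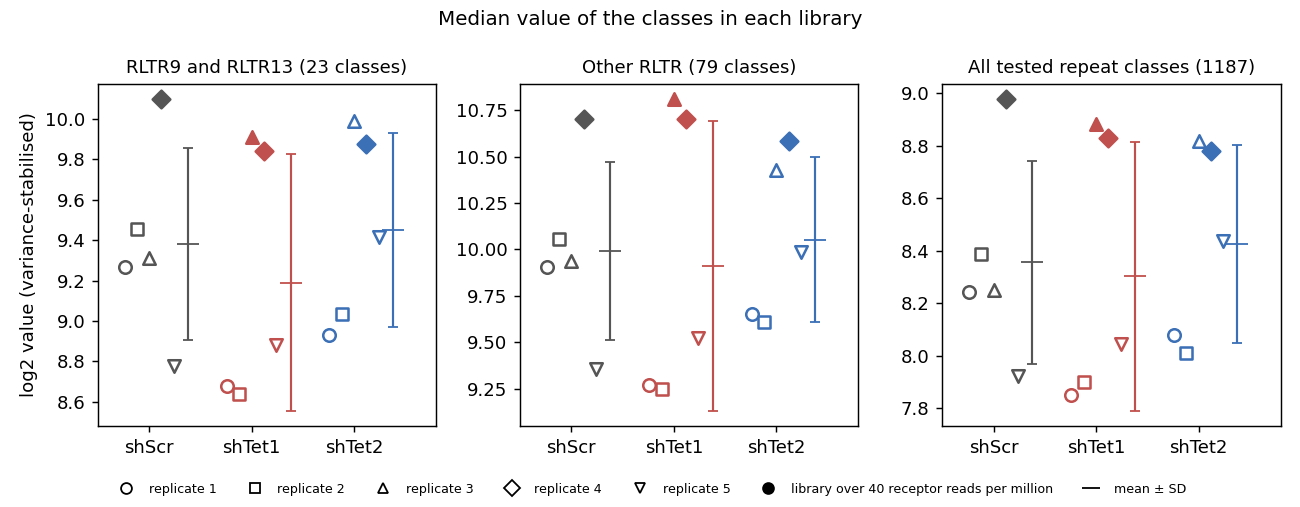
Median log2 value in each library of the 23 RLTR9 and RLTR13 subtypes, the 79 other RLTR classes and all 1187 tested repeat classes, by group, with marker shape giving the replicate and bars the mean ± SD of 5 libraries. Filled markers are the 4 libraries with over 40 receptor reads per 1000000, which sit at the top of their groups in each panel except for shTet2, where replicate 3 lies above replicate 4 or just below it.

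RLTR9D, RLTR9E and RLTR13D6 are LTR subtypes known as ESC enhancers. RLTR9D had values of 10.77, 10.97, 10.88, 11.05 and 10.60 in shScr replicates 1 to 5. In shTet1 it had 10.11, 10.25, 11.31, 11.15 and 10.65, and in shTet2 10.52, 10.57, 11.19, 10.89 and 10.92. The shTet1 libraries thus held both the lowest and the highest values, and the 3 groups overlapped. RLTR9D differed by -0.16 (95% interval -0.67 to 0.36) between shTet1 and shScr and by -0.04 (-0.55 to 0.48) between shTet2 and shScr. RLTR9E, the most read of the RLTR9 and RLTR13 subtypes at 262.5 to 349.1 reads per 1000000 gene reads in shScr, had values of 12.89, 12.93, 12.76, 12.90 and 12.52 in shScr. It had 12.14, 12.40, 12.99, 12.76 and 12.95 in shTet1, and 12.89, 12.60, 13.05, 12.97 and 13.05 in shTet2. In each same-numbered pair RLTR9E was higher in shTet2 than in shTet1 (5 of 5), with a difference of 0.26 (-0.15 to 0.68), but the ranges overlapped and the unadjusted p was 0.195 (limma). RLTR13D6 had values of 11.52, 11.53, 11.35, 11.87 and 10.83 with shScr. The shTet1 libraries had 10.81, 10.90, 11.97, 11.83 and 10.97, and the shTet2 libraries 11.33, 11.33, 11.97, 11.79 and 11.43. Its lowest 3 values in shTet1 lay near the lowest value of shScr, and its differences were -0.13 (-0.70 to 0.44) for shTet1 and 0.15 (-0.42 to 0.72) for shTet2 against shScr. All 9 adjusted p-values of these classes were 0.999 or above (limma), and the 9 exact permutation tests (two-sided, 5 against 5 libraries) gave p-values of 0.198 to 0.810 before adjustment.

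**Figure D2:**
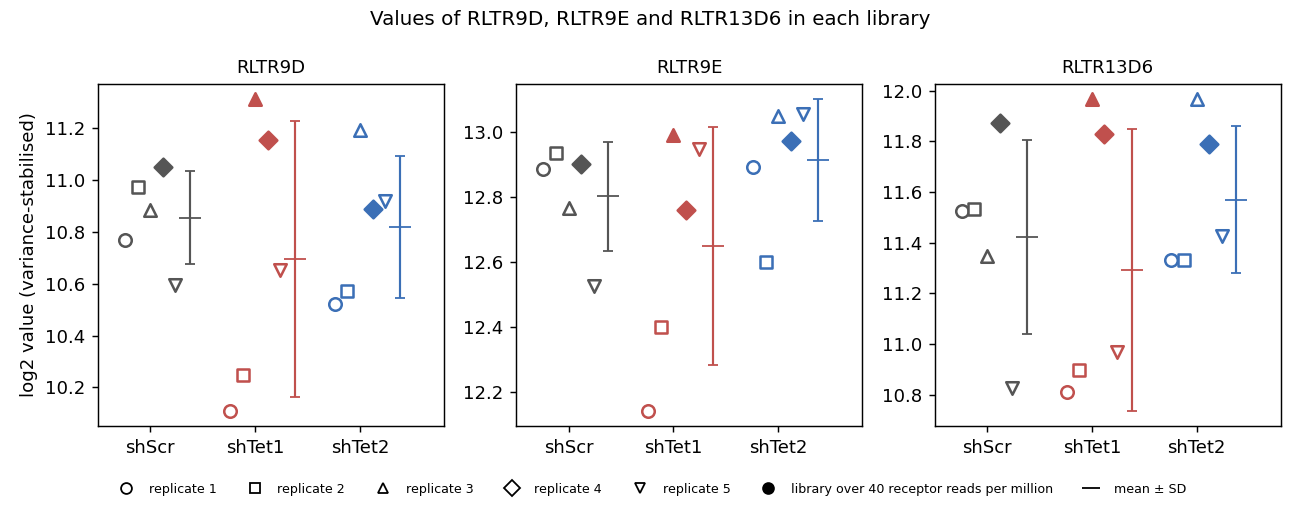
Log2 values of RLTR9D, RLTR9E and RLTR13D6 in each library by group, with marker shape giving the replicate, filled markers the 4 libraries of high receptor share and bars the mean ± SD of 5 libraries. The 3 groups overlap in each panel, and shTet1 is the group with the widest spread.

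The other RLTR9 and RLTR13 subtypes gave the same picture of small differences. In shTet1 against shScr, 20 of the 23 subtypes had a lower mean and 3 a higher one, with a median difference of -0.16 and a range from -0.37 (RLTR13A2) to 0.10 (RLTR13D4). In shTet2 against shScr, 16 were higher and 7 lower, with a median of 0.11 and a range from -0.22 (RLTR13A2) to 0.31 (RLTR9A). All 7 lower subtypes but RLTR9D belonged to RLTR13. In shTet2 against shTet1, 22 were higher and only RLTR13D4 was lower (-0.06), with a median of 0.18 and a maximum of 0.49 (RLTR9A). RLTR9A, which had the largest mean of this set in shTet2 after RLTR9E and RLTR13D6, stood at 10.81 ± 0.41 with shScr, 10.63 ± 0.74 with shTet1 and 11.11 ± 0.33 with shTet2 (SD, n = 5 each). RLTR9B stood at 8.12 ± 0.32, 7.93 ± 0.56 and 8.35 ± 0.22. An unadjusted p under 0.05 was reached by 0 of 23 in each comparison, where 0.842%, 1.26% and 2.70% of all classes reached it. With the replicate block, which compares same-numbered libraries, 2 of 23 reached it in shTet2 against shTet1 (beside 4.63% of all classes), and with library medians removed 4 of 23 did (beside 4.72%). With library medians removed the 23 subtypes split into 5 higher and 18 lower in shTet1, 14 and 9 in shTet2 against shScr, and 17 and 6 in shTet2 against shTet1.

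In shTet1 against shScr, 0 of 102 RLTR classes passed an adjusted p of 0.05, as did 0% of the 1187 classes tested. An unadjusted p under 0.05 was reached by 0 of 102, and by 0.842% of all classes. Means were lower in 79 RLTR classes and higher in 23, with a median of -0.11, against a median of -0.06 over all classes. The median was -0.16 for RLTR9 and RLTR13 and -0.09 for the other RLTR classes. Over all classes, 458 were higher and 729 lower. With library medians removed the split was 36 higher and 66 lower for RLTR classes, with a median of -0.05 against -0.00 over all classes. The 95% interval of the median RLTR class reached 0.67 to either side of its difference. Medians over classes have no test. Only RLTR45-int differed by more than 0.5. The classes with the largest positive statistics were RLTR19-int, RLTR16 (0.31) and RLTR3_Mm (0.48), and those with the largest negative ones were RLTR45-int, RLTR42 (-0.29) and RLTR13A2. RLTR3_Mm was among the least read classes, with 1 to 40 reads per library.

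In shTet2 against shScr, 0 of 102 RLTR classes passed an adjusted p of 0.05, again with 0% of all classes, and 0 reached an unadjusted p under 0.05, beside 1.26% of all classes. Means were higher in 72 RLTR classes and lower in 30, with a median of 0.09 against 0.04 over all classes, of which 721 were higher and 466 lower. With library medians removed the split was nearly even, at 56 higher and 46 lower with a median of 0.02, while 518 of all classes were higher and 669 lower (median -0.03). The medians of RLTR9 with RLTR13 and of the other classes were 0.11 and 0.08. The largest positive statistics belonged to RLTR6_Mm, RLTR44B (0.32) and RLTR9A, and the largest negative ones to RLTR45-int, RLTR42 (-0.22) and RLTR4_MM-int (-0.34). The groups overlapped for all 102 classes, while they were apart for 0.505% of all classes.

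In shTet2 against shTet1, 0 of 102 RLTR classes passed an adjusted p of 0.05, beside 0.253% of all classes, and 1 (RLTR6_Mm) reached an unadjusted p under 0.05, beside 2.70%. Means were higher in 86 classes and lower in 16, with a median of 0.14 against 0.08 over all classes, of 0.18 for RLTR9 and RLTR13 and of 0.13 for the rest. Over all classes, 830 were higher and 357 lower. Removing library medians moved the median of all classes to -0.05, with 454 higher and 733 lower, and on that scale 59 RLTR classes were higher and 43 lower, with a median of 0.02. The largest positive statistics belonged to RLTR6_Mm, RLTR9B (0.42) and RLTR9A (0.49), and the largest negative ones to RLTR5_Mm (-0.31), RLTR19-int (-0.19) and RLTR1B-int (-0.19). The groups overlapped for all 102 RLTR classes, while they were apart for 1.18% of all classes. The comparisons with shScr share the control libraries, and this one shares its libraries with both, so the directions of the 3 are not independent. For reference, the MT2 and MERVL classes of the same table, which belong to another LTR family, had a median difference of 1.08 here, of -0.54 in shTet1 and of 0.36 in shTet2 against shScr.

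**Figure D3:**
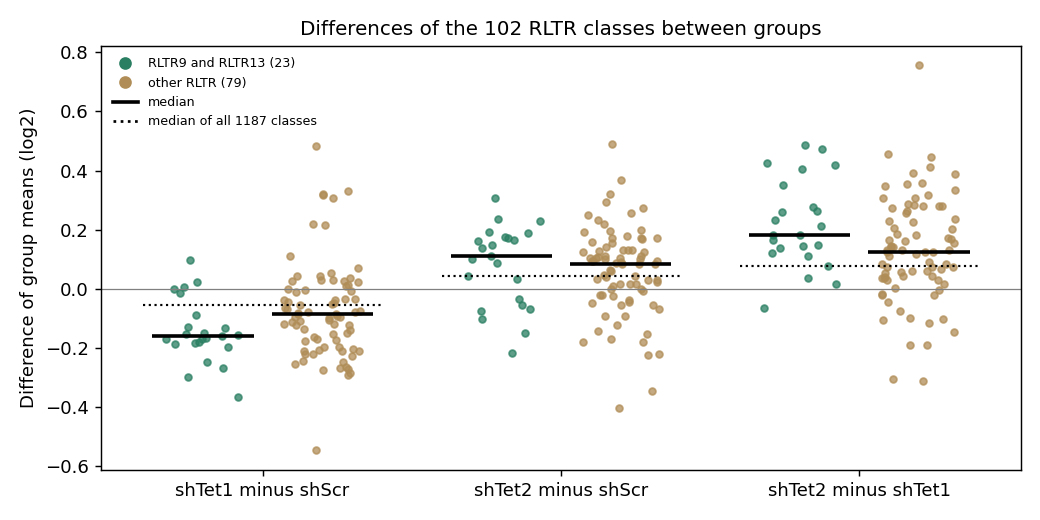
Difference of group means (log2) of each of the 102 RLTR classes in the 3 comparisons, with the 23 RLTR9 and RLTR13 subtypes apart from the 79 others. Black bars are medians, dotted lines the medians of all 1187 tested classes, and in each comparison the RLTR medians lie on the same side of 0 as the dotted line and farther from 0.

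RLTR6_Mm is the LTR of VL30 elements, whose internal part is MMVL30-int. RLTR6_Mm had values of 9.70, 9.58, 10.05, 10.55 and 9.56 with shScr. The shTet1 libraries had 8.81, 9.10, 10.44, 10.23 and 9.53, and the shTet2 libraries 10.04, 10.14, 10.62, 10.76 and 10.33. It was higher in shTet2 than in shScr and than in shTet1 in 5 of 5 same-numbered pairs, although the groups overlapped. The difference from shTet1 was 0.76 (95% interval 0.10 to 1.41, unadjusted p = 0.0264, adjusted p = 0.999, limma), and the one from shScr was 0.49 (-0.17 to 1.14). The exact permutation test gave p = 0.0794 and p = 0.0714 for the 2 differences (two-sided, 0.937 for both after adjustment over 69 tests). When the median of all classes was subtracted from each library, shTet2 lay at 1.80 to 2.13, shScr at 1.19 to 1.80 and shTet1 at 0.96 to 1.56. On that scale shTet2 was apart from shTet1, but from shScr only just, with a lowest value of 1.8010 against a highest of 1.7997. The difference from shTet1 was 0.63 (0.35 to 0.91, adjusted p = 0.0321, limma), where 0.758% of all classes were called. The difference from shScr was 0.42 (0.14 to 0.70) with an adjusted p of 0.999.

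The differences of RLTR6-int and MMVL30-int between shTet2 and shTet1 were smaller, and classes of other proviruses are given beside them. RLTR6-int differed by 0.39 (-0.36 to 1.14) between shTet2 and shTet1, and was higher in 5 of 5 same-numbered pairs. MMVL30-int differed by 0.28 (-0.28 to 0.83), with means of 10.57 in shScr, 10.50 in shTet1 and 10.78 in shTet2. MMERGLN-int, the internal part of GLN proviruses, was higher in shTet2 than in either other group in 5 of 5 pairs (0.42 against shTet1, exact permutation p = 0.0635 before adjustment and 0.937 after), while the differences of its LTR, RLTR1, were -0.08, 0.06 and 0.14 in the 3 comparisons. MuLV-int, internal sequence of murine leukaemia virus-like proviruses, differed by -0.26 in shTet1 and by 0.14 in shTet2 against shScr.

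RLTR19-int was the one RLTR class whose shTet1 and shScr libraries did not overlap, against 0.168% of all classes. It had values of 13.45, 13.22, 13.64, 13.68 and 13.49 with shScr. The shTet1 libraries had 13.73, 13.98, 13.78, 13.86 and 13.72, and the shTet2 libraries 13.36, 13.50, 13.92, 13.65 and 13.69. All 5 shTet1 libraries lay above all 5 shScr libraries, with a difference of 0.32 (-0.02 to 0.67, unadjusted p = 0.0666, adjusted p = 1.00, limma). The exact permutation p of 0.00794 is the smallest that 5 against 5 libraries can give, and it was 0.548 after adjustment over the 69 tests. The LTRs of the same name, RLTR19, RLTR19A, RLTR19B and RLTR19C, had lower means in shTet1, by -0.15 to -0.27, and the 95% interval of each included 0. This direction was not shared by replicates 3 to 5, within which all 5 RLTR19 classes were higher in shTet1 (0.06 to 0.19). With library medians removed, RLTR19-int differed by 0.38 but its groups overlapped, at 4.70 to 5.56 in shScr and 4.90 to 6.08 in shTet1.

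RLTR45-int had the largest negative difference of all RLTR classes in both knockdowns. Its values were 12.52, 12.80, 12.85, 13.17 and 12.93 with shScr. The shTet1 libraries had 11.73, 11.72, 12.90, 12.76 and 12.44, and the shTet2 libraries 11.74, 12.15, 13.10, 12.49 and 12.78. Replicates 1 and 2 were low in both knockdowns, and the groups overlapped. The difference was -0.55 (-1.15 to 0.06, unadjusted p = 0.0752, limma) for shTet1 and -0.40 (-1.01 to 0.20, unadjusted p = 0.179) for shTet2. Its LTR, RLTR45, differed by -0.21 and -0.17. Both comparisons use the same control libraries.

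**Figure D4:**
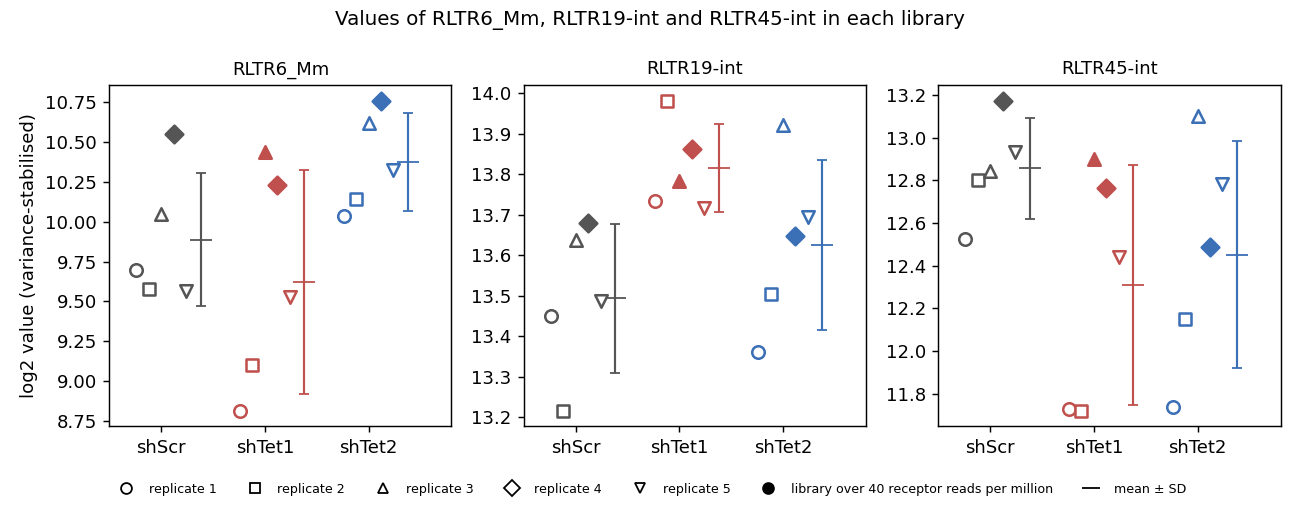
Log2 values of RLTR6_Mm, RLTR19-int and RLTR45-int in each library by group, with marker shape giving the replicate, filled markers the 4 libraries of high receptor share and bars the mean ± SD of 5 libraries. RLTR19-int in shTet1 lies above shScr in all libraries, while RLTR6_Mm and RLTR45-int overlap between groups.

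Of the 102 classes, 21 stand on the study's list of repeat classes enriched for TET1 by ChIP-seq. This list joins classes found from uniquely mapped reads (19 of the 21) and with reads of several locations kept (14). Only 12 were found both ways. Of the 21, 9 are RLTR9 or RLTR13 subtypes (39.1% of the 23) and 12 are other classes (15.2% of the 79). In shTet1 against shScr the 21 classes had a median difference of -0.15, with 16 lower and 5 higher, beside -0.10 for the other 81. In shTet2 against shScr the medians were 0.15 and 0.08, and in shTet2 against shTet1 0.18 and 0.13. In the 3 comparisons, 0 of the 21 passed an adjusted p of 0.05 (0%, 0% and 0.253% of all classes did), and 0 reached an unadjusted p under 0.05 (0.842%, 1.26% and 2.70%). With the replicate block the latter counts were 1, 1 and 2 of 21, beside 2.61%, 3.54% and 4.63% of all classes. With library medians removed they were 1, 2 and 5, beside 4.3%, 3.54% and 4.72%. Among the 12 outside RLTR9 and RLTR13, RLTR46 differed by 0.03 and 0.16 in shTet1 and shTet2 against shScr, RLTR44C by 0.05 and 0.20, RLTR27 by -0.10 and 0.13, and RLTR1B by -0.17 and 0.10. RLTR10C, the LTR of MMERVK10C proviruses, differed by -0.21 and 0.18, RLTR10 by 0.07 and 0.11, and RLTR10D by 0.32 and 0.17. RLTR4_Mm had differences of -0.04 and -0.14, its internal sequence RLTR4_MM-int of -0.24 and -0.34, and RLTR1B-int of -0.04 and -0.22. RLTR45-int (-0.55 and -0.40) and RLTR45 (-0.21 and -0.17), described above, are on the list as well. The groups overlapped for each of these.

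The families gave small differences. The 8 RLTR10 classes were all higher in shTet2 than in shScr (median 0.17, from 0.11 to 0.30), also with library medians removed (median 0.10), and 5 of them were lower in shTet1 (4 with library medians removed). Of the 6 RLTR44 classes, 5 were higher in shTet2 than in shScr (median 0.20). The 8 RLTR20 classes had a median of 0.02 in the same comparison, which turned to -0.05 with library medians removed. The 10 internal sequences were split, with 9 lower and 1 higher in shTet1 (median -0.13) and 5 higher and 5 lower in shTet2 (median 0.04, or -0.03 with library medians removed) against shScr, while the 92 LTRs had medians of -0.10 and 0.09.

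Most of the variation among libraries of a group was shared by the classes. The standard deviation within groups had a median of 0.52 over the RLTR classes, and this dropped to 0.21 when the median of all classes was subtracted from each library. Over all classes the values were 0.53 and 0.33. Among classes well above the table minimum, which leaves out RLTR43B (0.58), those with most spread left were RLTR43A (0.62), RLTR3_Mm (0.53) and RLTR20B2 (0.47). RLTR43A and RLTR3_Mm are thinly read, with RLTR43A at 23 to 206 reads per library. The most read classes, RLTR1B-int, RLTR19-int and RLTR17, had means of 574, 518 and 445 reads per 1000000 gene reads in shScr, and RLTR17 differed by 0.04 and 0.09 in the knockdowns. With library medians removed, the groups did not overlap for 1 of 102 classes in shTet1 against shScr (RLTR33, lower, beside 0.927% of all classes). They did not overlap for 3 in shTet2 against shScr (RLTR6_Mm, only just, and RLTR9A higher, RLTR20B1 lower, beside 0.590%) and 3 in shTet2 against shTet1 (RLTR6_Mm, RLTR19 and RLTR33, all higher, beside 1.52%). RLTR33, RLTR20B1 and RLTR19 were named after their values had been seen.

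The direction of the RLTR medians depended on which libraries were compared. The labels name no batch, and replicates 1 and 2 were set apart from replicates 3 to 5 because earlier results of these data had shown them to differ. The values of these sets are therefore a description and no test of a difference between them. The 4 libraries with many receptor reads all fall in replicates 3 to 5 (shScr replicate 4, shTet1 replicates 3 and 4, shTet2 replicate 4). Within replicates 1 and 2, the RLTR median was -0.58 for shTet1 and -0.25 for shTet2 against shScr. Within replicates 3 to 5 it was 0.19 and 0.26, with 93 and 96 of 102 classes higher. For RLTR9 and RLTR13, the first 2 replicates gave -0.68 and -0.32, and the last 3 gave 0.20 and 0.32. All classes together moved the same way, with medians of -0.47 and -0.31 and then 0.20 and 0.27. The difference of shTet2 from shTet1 kept its direction, at 0.30 and 0.04 for RLTR classes.

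Without the 4 libraries with many receptor reads, the RLTR medians were -0.41, 0.14 and 0.48 in the 3 comparisons. This left unequal groups, as it removed replicates 3 and 4 of shTet1 but only replicate 4 of shScr and of shTet2. It kept shTet2 replicate 3, whose median over all classes was 8.82, against 8.78 in the removed shTet2 replicate 4. In shTet2 against shTet1, 40 of 102 RLTR classes (12 of 23 RLTR9 and RLTR13 subtypes), all higher in shTet2, then reached an unadjusted p under 0.05, beside 20.2% of all classes. Of these, RLTR6_Mm alone passed the adjusted p of 0.05 (1.14, adjusted p = 0.0200, limma), beside 0.842% of all classes. RLTR6_Mm also passed with the receptor share as a covariate (0.65, adjusted p = 0.0134, with 0.842% of all classes called). Libraries were also weighted by how well they fitted the rest. With these weights, 75 RLTR classes (73.5%) were called higher in shTet2 than in shTet1, beside 44.7% of all classes called. With the same weights, 2 RLTR classes (1.96%) were called lower in shTet1 than in shScr, beside 1.85% of all classes called. RLTR45-int was 1 of them (-0.87, adjusted p = 0.0396, limma). These weights were smallest for shTet1 replicates 3 and 4 (0.167 and 0.180) and largest for shTet2 replicate 5 (6.89).

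**Figure D5:**
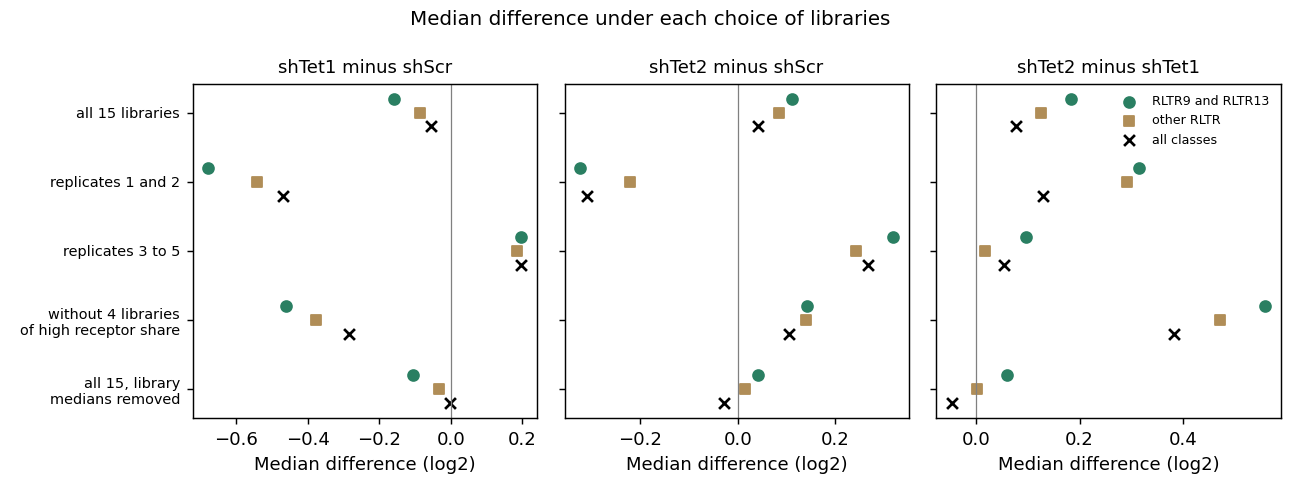
Median difference (log2) of the 23 RLTR9 and RLTR13 subtypes, the 79 other RLTR classes and all 1187 tested classes in the 3 comparisons, for 4 choices of libraries and for all libraries with their medians removed. In both comparisons with shScr the medians lie below 0 within replicates 1 and 2 and above 0 within replicates 3 to 5.

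Genes for factors that bind or silence LTRs were read in the gene table of the same libraries. Of 33 listed genes, which include the ESC factors Nanog, Pou5f1, Sox2 and Esrrb, the silencing factors Trim28 and Setdb1 and the DNA methyltransferases, 32 were tested. In shTet1 against shScr only Tet1 passed (0.0718% of all 19490 genes were called), and in shTet2 against shScr only Tet2 (0.390%). With the replicate block, these were again the only listed genes called in the 2 comparisons. The genes called among all 19490 then rose from 14 to 935 in shTet1 and from 76 to 840 in shTet2 against shScr. In shTet2 against shTet1 without the block, Tet1 was higher and Tet2 lower, and no other listed gene passed (4.24%). Since same-numbered libraries deviated together here, the fit with the replicate block bears on this call. It called 5 of the 32 listed genes, which were the hairpin targets Tet1 and Tet2 with Prdm14, Suv39h2 and Dnmt3l, beside 11.2% of all genes. Dnmt3l, a cofactor of the de novo methyltransferases, had means of 12.91, 12.45 and 13.12 in shScr, shTet1 and shTet2, and its difference between shTet2 and shTet1 was 0.68 (0.21 to 1.14, adjusted p = 0.104 without the block, limma). Prdm14, an ESC factor that represses Dnmt3 genes, differed by -0.66 (-1.10 to -0.21, adjusted p = 0.0977 without the block). Suv39h2 differed by -0.37 (-0.60 to -0.14, adjusted p = 0.0642 without the block, limma) in the same comparison, and by -0.31 (-0.54 to -0.08, adjusted p = 0.251, limma) in shTet2 against shScr. Trim28, the corepressor of KRAB zinc finger proteins, differed by -0.28 (-0.78 to 0.23) in shTet1 and by -0.15 (-0.66 to 0.35) in shTet2 against shScr.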

How the data were processed

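The authors sequenced rRNA-depleted, strand-specific total RNA libraries and, per the submitters' processing notes and the study's methods, trimmed reads with Trim Galore (0.3.3), aligned them to mm9 with TopHat2 (2.0.9), counted them per gene or annotated repeat, summed the copies of each repeat class, and normalised with DESeq2. The deposited values are log2-scale, variance-stabilised expression per gene and per repeat class. Per those methods, each read with several possible locations was kept at 1 of them, so near-identical copies of different classes may exchange reads. Whether counting used strand is not given in the sources used here. Class totals are not per length.

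The transformation was inverted to whole reads to give depths and reads per 1000000. Of the nonzero values below 20000 reads, 100% lay within 0.05 of a whole number, and larger values were not checked. The scaling per read of the repeat values matched the ratio of gene read totals between libraries to within 0.00123. Repeat values are thus relative to gene reads, and repeat reads were 28.5 to 59.7 per 100 gene reads. Deposited values were fitted with limma 3.58.1 in R 4.3.3, on all 1187 repeat classes above the table minimum of 2.39 in at least 5 of 15 libraries, with a variance trend, two-sided tests, and Benjamini-Hochberg adjustment over all classes. A threshold of 0.05 was used. Medians over classes have no test. The fit was tested on simulated data. Exact permutation tests compared 5 with 5 libraries. The members and lists were chosen with earlier results of these data known. Named classes were RLTR9D, RLTR9E and RLTR13D6, the other RLTR9 and RLTR13 subtypes, classes on the study's list of TET1-enriched repeats, the 3 largest positive and negative statistics per comparison, the 3 with most residual spread and the 3 most read (statistics and spread only for classes with a group mean at least 2 over the table minimum). Also named were RLTR6_Mm and RLTR1 with the internal classes RLTR6-int, MMVL30-int, MMERGLN-int and MuLV-int. Same-numbered libraries deviated together (all 5 correlations over 0.1) in shTet1 with shScr (0.313 to 0.809) and shTet2 with shTet1 (0.456 to 0.820), and in 4 of 5 for shTet2 with shScr. Alternatives covered the filter, trend, scaling, library weights, replicate block and libraries left out. Primer matches used NCBIM37 (mm9). No RLTR13D6 product was found.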

Additional observations from a re-analysis of the deposited data

Results flagged for a closer look

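In groups of 5 libraries, 6 of 168 groups tested held 1 library far from the other 4 by Dixon's gap test, a result that chance gives in about 1 of 20 groups. RLTR17 stood low in shScr replicate 5 (12.88) and in shTet2 replicate 5 (13.17), RLTR1B stood low in shScr replicate 5 (10.51), RLTR1B-int and RLTR6-int stood high in shScr replicate 4 (14.27 and 12.02), and RLTR10D stood high in shTet2 replicate 4 (9.84). Replicate 4 of both groups is among the libraries with many receptor reads.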

How the results depend on the processing

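Across the alternatives run, the count of RLTR classes past an adjusted p of 0.05 rose from 0 to 2 in shTet1 against shScr with library weights. In shTet2 against shTet1 it rose from 0 to 75 with library weights, and to 1 (RLTR6_Mm) with median centring, with the receptor share as a covariate and without the 4 libraries of high receptor share. With the replicate block the count was 0 in each comparison, and the block changed no other call of an RLTR class; of the factor genes it called 5 in shTet2 against shTet1 instead of 2, adding Prdm14, Suv39h2 and Dnmt3l. Leaving out 1 library at a time, the RLTR median ranged from -0.29 to 0.05 in shTet1 and from -0.04 to 0.25 in shTet2 against shScr, and from -0.00 to 0.33 in shTet2 against shTet1. The RLTR9 and RLTR13 median ranged from -0.33 to -0.01, -0.02 to 0.26 and 0.08 to 0.37. Depth limits the thinly read classes, such as RLTR3_Mm with 1 to 40 reads per library.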
